A study of Vitis vinifera with 7 samples.

Results

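The 175 probes described here, out of 28811 on the array, had a higher signal at each later stage of ripening in Sauvignon blanc grape berries, first between the green stage and veraison and again between veraison and the ripe stage. They were chosen by their measured signals. A probe was included when its lowest log2 signal on the 3 veraison arrays was at least 2 above its highest signal on the 3 green arrays, and its signal on the ripe array was at least 1 above its highest veraison signal. These limits correspond to 4-fold and 2-fold on the linear scale. The members make up 0.607% of the probes. Because the signals of all 7 arrays were used to choose them, the sizes of their steps are given as a description and are not tested.

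The berries came from a white cultivar of Vitis vinifera. Stages follow the numbered EL scale of grapevine growth, with green berries at EL-31, berries at veraison at EL-34 and ripe berries at EL-38. There were 3 green arrays, 3 veraison arrays and 1 ripe array, all hybridised with Cy3-labelled total RNA. Per the series' design text, tissue was ground and combined into 1 pool per stage before RNA was taken, and the arrays of a stage are separate extractions from aliquots of that pool. Their spread covers extraction, labelling and hybridisation and does not cover differences between vines or bunches, and the ripe stage has no replicate. No genotype or treatment differed between the stages in the labels.

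Veraison is the onset of ripening, when a hard, acidic, green berry begins to soften, to take up water and to store glucose and fructose. Malic acid is consumed in the weeks that follow, and aroma compounds and pathogenesis-related proteins build up in the flesh and skin. In a white cultivar no red anthocyanin pigment forms. Softening and sugar storage thus begin at veraison, while many aroma compounds and defence proteins are features of riper fruit.

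A match of all 28811 probe identifiers to RefSeq's Vitis vinifera genes returned 0 hits, so members are given by identifier. No function is assigned to any of them, no sequence or position is printed, and no list of named genes could be counted. For the same reason the labelled berry tissue could not be checked against markers of seed, skin, vascular or green plastid-rich tissue. In pooled whole tissue a higher signal can come from more cells of a type or from more RNA per cell, and these cannot be told apart.

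The arrays were comparable in scale, with medians over all probes between 9.17 and 9.22. Veraison extraction 2 stood apart, with an SD over all probes of its log2 difference of 0.596 to extraction 1 and 0.529 to extraction 3, against 0.204 between extractions 1 and 3. Its place in the members is given with the order of the extractions. Over all probes the median difference was 0.08 for veraison against green and 0.08 for ripe against veraison, well below the steps of the members.

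Over the members, the median log2 signal was 6.74, 6.69 and 6.51 in the green extractions, 10.20, 10.38 and 10.28 in the veraison extractions, and 12.25 on the ripe array. The rule sets these 3 levels apart, and the medians of the extractions of a stage lay close together. In green berries their stage means ran between 4.65 and 11.14, with a median of 6.62. At veraison the means ran between 7.63 and 13.71, with a median of 10.20. On the ripe array the signals lay between 9.08 and 15.36, and 3 members reached 15 or more, where the table's highest value of 15.99 leaves little room. A probe's signal depends on its oligonucleotides as well as on its transcript, so these ranges place the members on the scale of the array and do not rank their transcripts.

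**Figure D1:**
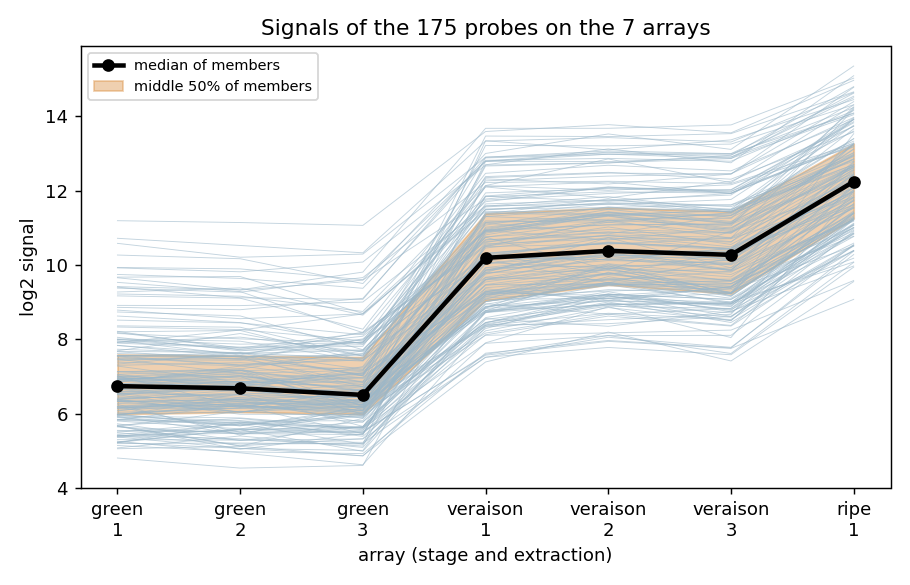
Log2 signal (y axis) of the 175 members on each of the 7 arrays (x axis, stage and extraction), with 1 thin line per probe that joins its own values. The black line is the median over members, at 6.51 to 6.74 in green berries, 10.20 to 10.38 at veraison and 12.25 on the ripe array, and the shaded band holds the middle 50% of members.

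The first step, the veraison mean minus the green mean, had a median of 3.26 over the members, which is 9.60-fold. It lay between 2.23 and 6.88, and between 2.73 and 4.02 for the middle 50% of members. It was at least 3 in 113 members, at least 4 in 45, at least 5 in 20 and at least 6 in 7. The second step, the ripe signal minus the veraison mean, had a median of 1.87, which is 3.65-fold, and lay between 1.04 and 4.07. It was at least 1.5 in 128 members, at least 2 in 65 and at least 3 in 8. Together the steps gave a median rise between green and ripe of 5.23, or 37.5-fold, with 162 members at 4 or more, 52 at 6 or more and 4 at 8 or more.

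The spread between extractions was small beside these steps. The SD between veraison extractions had a median of 0.164 over the members and did not exceed 0.601 (n = 3). In green berries the median SD was 0.182 and the highest 0.721 (n = 3). Over all probes the corresponding medians were 0.188 at veraison and 0.138 in green berries. The lowest and highest veraison signals of a member differed by a median of 0.31 and by at most 1.18. In 0 members was this range wider than the gap between the highest veraison signal and the ripe signal. The rule requires that gap to be at least 1, so this count was largely fixed by the choice of members. A small spread beside the steps is favoured in the same way. The least steady member in green berries was VitusP00001166, chosen after its values were seen, with 9.54, 9.29 and 8.18 in green berries, 12.10, 11.80 and 12.26 at veraison, and 13.73 when ripe. Its green extraction 3 lay more than 1 below the other two, and the gap to the veraison arrays still met the limit.

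The fit over all probes (limma, Benjamini-Hochberg adjusted p under 0.05) called 175 of the 175 members higher at veraison than in green berries, where the background was 26.4% of all probes. It called 172 of them higher in ripe berries than at veraison, where the background was 14.4%. These comparisons chose the members, so nothing is read from the counts. The 3 members without a call for ripe against veraison had second steps between 1.18 and 1.34 with standard errors of 0.353 to 0.397, and adjusted p of 0.0502 to 0.0572 in limma. The ripe array was assumed there to vary like the others. The fit for ripe against veraison called 7039 probes in either direction with all arrays, 12989 without veraison extraction 2 and 4412 without extraction 3.

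The members below are ranked on the deposited values. The largest rise was in VitusP00023335. Its log2 signals were 5.39, 5.73 and 5.18 in green berries, 12.32, 12.18 and 12.45 at veraison, and 14.78 when ripe. It was near the low end of the scale in every green extraction and in the upper part of it on all later arrays. Its first step of 6.88 (SE 0.16) was the largest of all members, and with a second step of 2.47 (SE 0.23) its signal was 653-fold higher in ripe than in green berries. Both values rest on green signals near the low end of the scale. With 50 added to the linear signals the rise of VitusP00023335 was 302-fold, still the largest, and its first step of 5.78 ranked 5 among the members. Next came VitusP00182504, with 5.23, 5.58 and 5.64 in green berries, 10.50, 11.20 and 10.72 at veraison, and 14.19 when ripe. Its steps were 5.33 (SE 0.21) and 3.38 (SE 0.30), so it combined a first step among the 20 largest with a second step among the 8 largest.

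VitusP00163549 had the second largest first step and hardly more than the required second step. Its signals were 6.21, 6.21 and 6.11 in green berries, 12.79, 12.99 and 12.87 at veraison, and 14.05 when ripe. The first step was 6.71 (SE 0.11), and with 50 added it was the largest of all members at 5.96. The second step was 1.17 (SE 0.15), so that 14.8% of its whole log2 rise fell after veraison.

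The opposite balance was seen in VitusP00108348, which had the largest second step. It gave 6.15, 6.28 and 6.26 in green berries, 9.16, 9.98 and 9.25 at veraison, and 13.54 when ripe. Its first step was 3.23 (SE 0.22) and its second 4.07 (SE 0.31), or 16.8-fold after veraison, and 55.8% of its rise came in the later interval, the highest share of any member. VitusP00062346 was similar, with 5.06, 5.13 and 4.86 in green berries, 7.91, 8.88 and 8.05 at veraison, and 11.99 when ripe. Its second step of 3.71 (SE 0.36) made up 53.2% of the rise. In both, veraison extraction 2 was the highest of the 3, and no extraction came near the ripe signal.

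VitusP00122869 had the second highest share after veraison, 53.9%. Its signals were 7.56, 7.31 and 7.45 in green berries, 9.67, 10.18 and 9.86 at veraison, and 12.79 when ripe, for steps of 2.47 (SE 0.16) and 2.88 (SE 0.22). At the other end of the size range stood VitusP00156001 and VitusP00138324. VitusP00156001 gave 6.61, 6.63 and 6.48 in green berries, 8.78, 8.93 and 9.01 at veraison, and 10.09 when ripe. VitusP00138324 gave 6.97, 6.86 and 7.15 in green berries, 9.24, 9.51 and 9.33 at veraison, and 10.51 when ripe. Their whole rises of 3.51 and 3.52, about 11.4-fold and 11.5-fold, were the smallest among the members, and their arrays kept apart by stage as the rule requires.

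**Figure D2:**
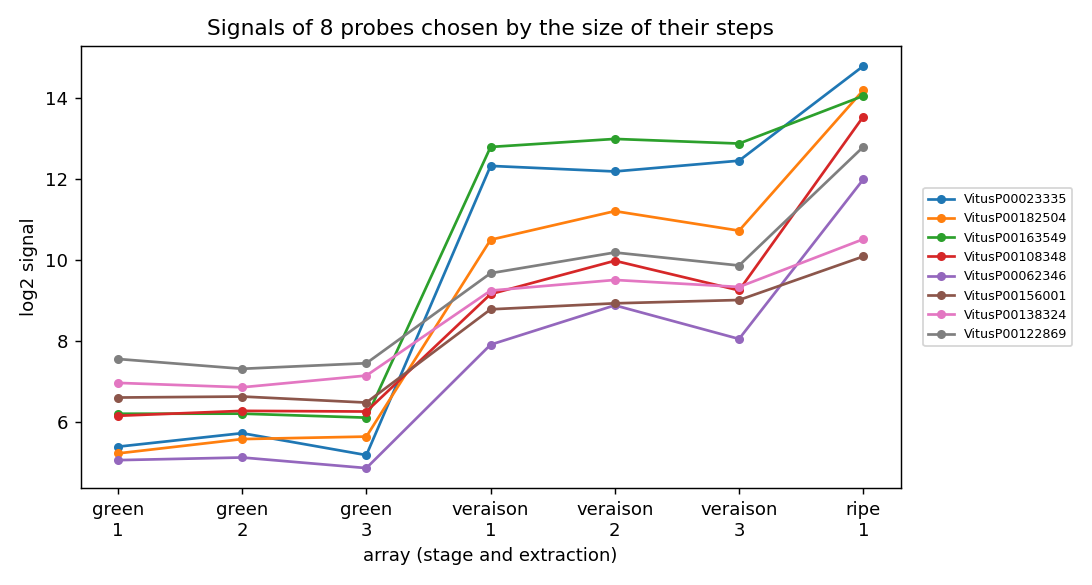
Log2 signal (y axis) on each array (x axis) for the 8 members with the largest rise, first step, second step or share of the rise after veraison, or with the smallest rise. VitusP00023335 and VitusP00163549 stand above 12 on every veraison array, while VitusP00108348 and VitusP00062346 gain more after veraison than before it.

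The balance between the steps varied over the members. The share of the log2 rise that came after veraison had a median of 36.9% and lay between 14.4% and 55.8%. It was below 20% in 7 members, between 20% and 30% in 41, between 30% and 40% in 74, between 40% and 50% in 41, and 50% or more in 12. In those 12 the second step was the larger one, a count that was 25 with 50 added to the linear signals. The limits ask for a larger first than second step, so a share below 50% is favoured by the choice of members.

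Within the members the sizes of the steps were only weakly related. Over the 175 members Pearson's r between the steps was -0.13, and the steps share the veraison arrays with opposite sign. The limits also cut off small values of each step, so nothing further is read from this r. The 44 members with the largest first steps, of 4.04 or more, had a median second step of 1.61, against 1.82 in the 44 with the smallest, of 2.72 or less. The steps were also set against the signal in green berries, which enters the first step itself, so that dim members are favoured there by construction. The 44 with the lowest green means, up to 6.03, had a median first step of 3.49 and second step of 2.11, against 3.06 and 1.55 in the 44 with the highest green means, of 7.56 or more. With 50 added to the linear signals the order of the first steps turned, at 2.44 in the dim members and 2.94 in the bright ones, while the second steps were 1.99 and 1.54. On the ripe array the members dim in green berries had a median signal of 11.22 and the bright ones 13.35. The r between green mean and ripe signal was 0.64. The rule places each ripe signal above the member's green signals, and the table's highest value is 15.99. Part of this r is thus built in by the choice of members.

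**Figure D3:**
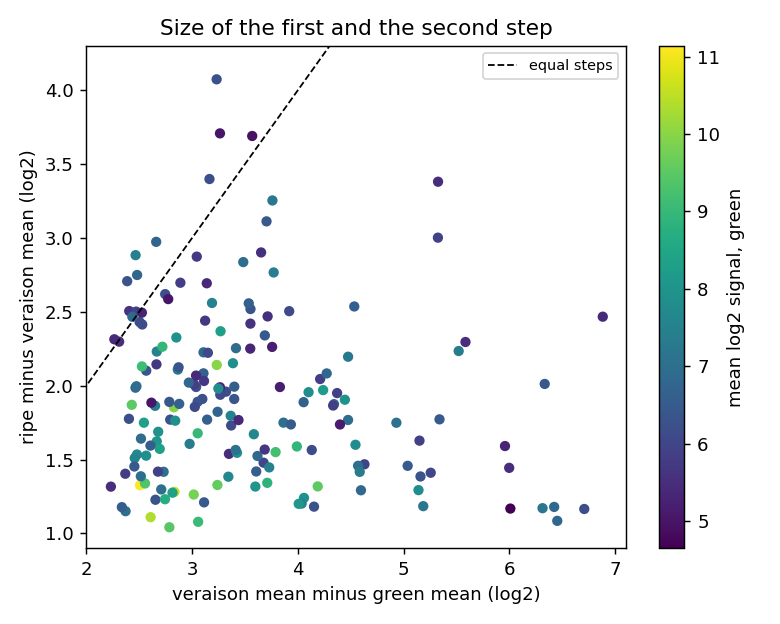
Second step (y axis, ripe signal minus veraison mean, log2) against first step (x axis, veraison mean minus green mean, log2), 1 point per member, coloured by the mean green signal. The dashed line marks equal steps: 12 members lie above it in the deposited values, and the 8 with a second step of 3 or more have first steps both below and above 5.

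With the linear scale shifted up, some members dropped out. When 50 was added to every linear signal before the logarithm, 128 of the 175 still met the limits. The 47 that did not had a median green mean of 6.27, against 6.84 in the others. Over all 175 members, these 47 included, the median share of the rise after veraison with 50 added was 39.9%. The second step was larger than the first in 25 of the 175. The lowest value of the table was 4.06, and the size of a first step from green signals near it depends on how low signals are treated.

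Most probes that met the limit at veraison did not meet that of the second step. The limit of the first step was met by 774 probes, 2.69% of the array, and 175 of these, 22.6%, were members. In 150 probes (19.4%) the ripe signal was at least 1 below the lowest veraison signal, and the remaining 449 (58.0%) lay between the limits. The limit of the second step was met by 1540 probes, 5.35% of the array, of which the members are 11.4%. Both intervals are measured from the same veraison arrays, so these shares are given as counts that the rule fixes.

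Beside the second step, which the rule fixes, members also stood lower than the other 599 probes with the first step. Their median signals were 10.20 at veraison and 6.62 in green berries, and those of the other 599 were 12.20 at veraison and 8.04 in green berries. The first step was of similar size, with a median of 3.26 in the members and 3.40 in the others. Of the probes with the first step and a veraison mean below 9, 43.6% (34 of 78) were members. The share was 36.0% (76 of 211) for means of 9 to 11, 21.2% (58 of 274) for 11 to 13 and 3.32% (7 of 211) for 13 or more. Over all probes of the same 4 ranges, the limit of the second step was met by 7.37%, 5.91%, 2.63% and 0.46%. Both shares were lower where the signal at veraison was higher. The second limit is measured from the same veraison arrays that set these ranges, so a low veraison signal favours membership by construction, and the upper end of the scale, 15.99, bounds bright probes; nothing further is read from the shares.

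The order of the veraison extractions, which the rule uses only through the lowest and the highest, was uneven in the members, and so was that of the green extractions. Green extraction 3 was above green extraction 1 in 33.1% of the members, against 39.4% of the other 599 probes with the first step and 53.7% of all probes. At veraison, extraction 3 was above extraction 1 in 158 of 175 members (90.3%), against 59.3% of the other 599 probes with the first step and 56.6% of all probes. Extraction 2 was above extraction 1 in 85.1% of the members, against 66.6% and 62.4%. Extraction 1 was the lowest of the 3 in 134 members (76.6%), against 43.6% of the other 599 probes and 42.0% of all probes. It was the highest in 2 members (1.14%), against 17.7% and 23.0%. The order 1, 3, 2 from low to high was found in 105 members (60.0%), against 35.1% and 34.4%. The differences were small, with a median of 0.13 for extraction 3 minus extraction 1, against 0.03 in the other 599 probes and 0.02 in all probes. After quantile normalization extraction 3 was above extraction 1 in 153 of the 175 members, against 53.8% of all probes. After scaling to the 75th percentile it was above in 154 members, against 52.6% of all probes.

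The 1365 probes that met the limit of the second step but not of the first showed the same order less strongly, with extraction 3 above extraction 1 in 74.4%. All 3 extractions came from 1 pool of ground tissue and each has 1 array, so the order was not tested.

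Extraction 2 was the highest veraison array in 120 members, or 68.6%, against 58.1% of the other 599 probes and 54.7% of all probes. In the members it lay a median of 0.20 above the mean of extractions 1 and 3. This median was 0.11 in the other 599 probes, 0.17 in the 1365 with only the second step and 0.11 in all probes. Extraction 2 was above that mean in 138 members, a count not taken over all probes, so nothing is read from it. Set between that mean and the ripe signal, extraction 2 stood a median of 10.1% of the way to ripe, with 1.88% and 18.6% as the bounds of the middle 50% and 36.8% as the highest. The rule keeps the ripe signal at least 1 above every veraison signal, so this place is bounded by the choice of members. The extremes of extraction 2 minus that mean, chosen after their values were seen, were VitusP00062590 and VitusP00188026. VitusP00062590 had 8.86, 10.03 and 9.23 at veraison and 12.77 when ripe, so extraction 2 was the high one. VitusP00188026 had 10.75, 9.88 and 10.91 at veraison and 12.08 when ripe, so there extraction 2 was the low one.

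**Figure D4:**
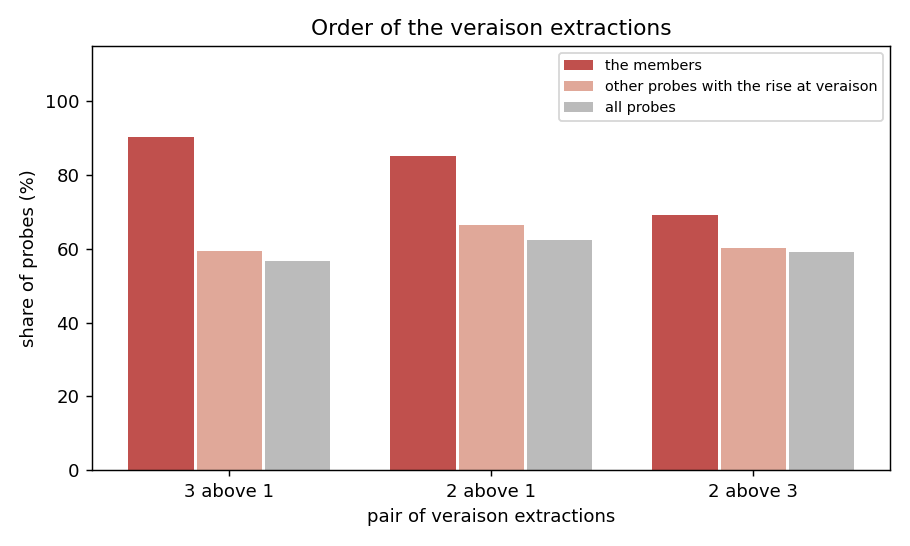
Share of probes (y axis, percent) in which the first-named veraison extraction had the higher signal (x axis, pair of extractions), for the 175 members, the other 599 probes with the first step and all 28811 probes. Extraction 3 exceeds extraction 1 in 90.3% of the members, 59.3% of the others and 56.6% of all probes.

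The median second step over the members was 2.02 against extraction 1, 1.72 against extraction 2 and 1.83 against extraction 3. The rule asks for a gap of at least 1 to each of these extractions, and all 3 medians use the same ripe array. Closeness of the medians is thus favoured by the choice of members. Without extraction 2, 208 probes met the rule, the 175 members and 33 more, and extraction 2 had been the highest veraison array in 29 of the 33. Leaving out an array can only add probes, since the rule takes the lowest and the highest.

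Several members stood next to each other in the order of their identifiers. In the sorted list, 20 members (11.4%) had another member as a direct neighbour, in 9 runs of 2 or 3, while 1.17% of all probes had a member as a direct neighbour. What the order of the identifiers follows is not given in the sources used here. Of the 774 probes with the first step 21.8% had a neighbour of their own kind, against 5.18% of all probes next to such a probe. For the 1540 with the second step the shares were 20.4% and 10.2%. The 318 identifiers next to a member that were not members themselves had a median first step of 0.17 and second step of 0.15. The limit of the first step was met by 4.40% of them, against 2.69% of all probes. That of the second step was met by 7.86%, against 5.35%.

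The runs were named after their values were seen. VitusP00034584, VitusP00034601 and VitusP00034607 had first steps of 3.10, 3.32 and 3.14 and second steps of 1.91, 1.96 and 1.77, so their profiles nearly coincided. VitusP00163511, VitusP00163512 and VitusP00163526 had first steps of 3.77, 3.11 and 2.87 and second steps of 2.77, 2.23 and 2.11. VitusP00206424 and VitusP00206436 had steps of 4.47 and 1.77 and of 4.60 and 1.29. Neighbours were not always alike: VitusP00146026 had 5.02, 7.79 and 10.38 as its green mean, veraison mean and ripe signal, while VitusP00146041 had 10.53, 13.36 and 14.64. Whether neighbouring probes read the same or near-identical transcripts was not tested, so runs may count 1 transcript more than once.

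The limits cut through a continuous range. Just inside the first limit, where the gap between the lowest veraison and the highest green signal is 2, lay VitusP00114660 and VitusP00142088, with gaps of 2.01 and 2.01. Just outside lay VitusP00134308 and VitusP00093135, with 1.99 and 1.98. For the limit of 1 on the gap between the ripe and the highest veraison signal, VitusP00138324 and VitusP00246901 were just inside with 1.01 and 1.01, and VitusP00111682 and VitusP00284307 just outside with 0.98 and 0.97. A gap of under 2.1 at the first limit was found in 15 members, and one of under 1.1 at the second in 16. Among probes that met the second limit, 212 had a first gap between 1 and 2, and among those that met the first, 197 had a second gap between 0 and 1.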

How the data were processed

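Log2 signals, 1 per probe identifier and array, were used as deposited by the authors. Per the submitters' processing notes they were made with RMA, a method that corrects background, normalizes arrays and summarises oligonucleotides; its version and settings are not given in the sources used here. Groups were taken from the sample titles, and 0 columns of the table were left unused. The rule was applied to the deposited values. Probes of all arrays were fitted with limma 3.58.1 in R 4.3.3 (lmFit and eBayes, stage as the only term, two-sided), with Benjamini-Hochberg adjustment over 28811 probes. The fit was tested on simulated data with independent noise of the same size on every array. No simulated array stood apart as veraison extraction 2 did, so that test does not cover this case. Standard errors of single probes come from the limma fit of the deposited arrays. Like its p-values, they cover the spread between extractions of 1 pool per stage and not that between vines or bunches. Members, rankings and alternatives were chosen with earlier results of these data known. Named probes are the first 2 of rankings by whole rise, first step, second step, smallest rise and share after veraison, and those nearest each limit; others are marked as chosen later. The lists of gene products could not be used, since 0 identifiers were matched to names. Results were recomputed with other limits, limits on stage means, quantile-normalized arrays, arrays scaled to their 75th percentile, 50 added to the linear signal, the 25% dimmest probes removed, a trended and robust variance, an adjusted p under 0.01, a replicate block, and each replicated array left out. Precision is limited by how few arrays there are and by the use of 1 pool per stage.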

Additional observations from a re-analysis of the deposited data

How the results depend on the processing

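The number of probes that met the rule, 175, was 180 on quantile-normalized arrays and 172 on arrays scaled to their 75th percentile, with 172 of the members in each. Without the 25% dimmest probes it was 175. In green berries 61 members were among the dimmest 25% of all probes, against 0 at veraison and 0 on the ripe array. The rule asks for higher signals at the later stages, so this unchanged count is favoured by the choice of members. The number that met the rule was 695 with limits of 1 and 0.5 and 42 with limits of 3 and 1.5. It was 279 with the limits set on stage means, which is looser by construction. Leaving out arrays gave 179 to 208, each including all 175 members. The median first step, 3.26, was 2.70 with 50 added to the linear signal, a change that shrinks differences of dim probes, and 3.19 to 3.35 when arrays were left out. The median second step, 1.87, was 1.78 to 1.94 when arrays were left out. The 120 members with veraison extraction 2 highest were 105 to 120 under the other scalings. Over all probes, 7039 were called for ripe against veraison, 3468 with the replicate block and 3159 at an adjusted p under 0.01, and leaving out arrays gave 4412 (without veraison extraction 3) to 12989 (without veraison extraction 2). For veraison against green 13881 were called, 12263 with the replicate block and 11107 to 16107 without single arrays. Deviations of equally numbered extractions correlated at -0.21, -0.12 and 0.05 over probes, so equal numbers were not taken as pairs.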
